A study of Homo sapiens with 19 samples.

Results

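The BCL2 family was followed at the chromatin level through 10 of its genes, taken by name from the GENCODE annotation (release 44, hg38), out of 20033 protein-coding genes on chromosomes 1 to 22, X and Y. They comprised 4 anti-apoptotic genes (BCL2, BCL2L1, MCL1 and BCL2A1), 2 effector genes (BAX and BAK1) and 4 BH3-only genes (BIK, BCL2L11, BBC3 and PMAIP1). All 10 were found in the annotation and none was filtered out. The study asked whether transposable elements act as regulatory elements in acute myeloid leukaemia (AML), and its series held 19 chromatin immunoprecipitation (ChIP-seq) samples of human leukaemia cell lines. A peak list was used here for 5 of them, each from 1 library, so that no value below has a replicate and no difference between lines was tested.

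Peaks of H3K27ac, the acetylation of histone H3 at lysine 27 that marks active promoters and enhancers, were available for 4 lines. HL-60, Molm13 and OCI-AML3 are AML lines, and K562 is a chronic myelogenous leukaemia line with erythroid features. HL-60 and Molm13 had received no vector. OCI-AML3 and K562 carried dCas9-KRAB, a nuclease-dead Cas9 fused to a repressor domain, together with the empty vector in place of a guide RNA, and had been sorted for both reporters. Line and vector status therefore cannot be told apart. The fifth list held peaks of dCas9 itself in K562 cells carrying dCas9-KRAB and 4 single guide RNAs (sgRNAs) directed at LTR2B elements, long terminal repeats of an endogenous retrovirus. In a ChIP of bulk cells, the share of cells that carry a mark and the amount of mark per cell cannot be told apart, and a missing peak means only that none was called.

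The proteins of this family decide whether mitochondria release cytochrome c, the step that commits a cell to the intrinsic pathway of apoptosis. BAX and BAK1 form the pores in the outer mitochondrial membrane, the anti-apoptotic proteins bind and restrain them, and the BH3-only proteins are sensors of stress that neutralise the anti-apoptotic proteins or activate the effectors. Myeloid leukaemias depend on BCL2 and MCL1 to differing degrees, and BCL2 is the target of venetoclax, a drug used in AML.

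The promoters of 3 members are shown because they span the range seen among the members with a promoter sequence. This ran from a CpG-poor promoter with a TATA motif to CpG-rich ones. Each is the 300 bp from 250 bases before to 50 bases after a RefSeq start (GRCh38.p14), 5′ to 3′ along the gene, with CG dinucleotides in capitals. They lie at chr15:79971147-79971446 on the minus strand (BCL2A1), chr18:63319720-63320019 on the minus strand (BCL2) and chr18:59899746-59900045 on the plus strand (PMAIP1).
BCL2A1: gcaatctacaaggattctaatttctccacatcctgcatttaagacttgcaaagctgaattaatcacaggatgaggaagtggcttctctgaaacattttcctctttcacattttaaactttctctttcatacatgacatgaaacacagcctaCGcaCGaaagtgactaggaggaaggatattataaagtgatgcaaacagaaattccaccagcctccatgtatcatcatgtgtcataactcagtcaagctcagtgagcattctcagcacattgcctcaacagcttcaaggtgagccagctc
BCL2: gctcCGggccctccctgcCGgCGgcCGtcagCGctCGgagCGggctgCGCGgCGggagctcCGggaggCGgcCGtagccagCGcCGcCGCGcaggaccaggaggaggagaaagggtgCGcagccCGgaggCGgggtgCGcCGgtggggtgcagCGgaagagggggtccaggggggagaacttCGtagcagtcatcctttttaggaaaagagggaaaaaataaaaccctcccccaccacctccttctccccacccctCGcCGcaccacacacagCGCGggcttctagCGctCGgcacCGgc
PMAIP1: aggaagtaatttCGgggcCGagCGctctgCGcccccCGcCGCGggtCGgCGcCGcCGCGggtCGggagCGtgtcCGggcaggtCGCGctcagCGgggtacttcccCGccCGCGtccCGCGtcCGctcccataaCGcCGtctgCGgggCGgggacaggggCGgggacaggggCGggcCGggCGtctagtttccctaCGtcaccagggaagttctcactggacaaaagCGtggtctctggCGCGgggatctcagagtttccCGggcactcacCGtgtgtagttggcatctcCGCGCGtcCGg

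The BCL2A1 promoter held 2 CG dinucleotides against 31 in BCL2 and 42 in PMAIP1. The median over 21613 promoters of coding genes was 21, and 5.95% of them had fewer than BCL2A1. TATAAA, searched on both strands, stood 70 bases before the start of BCL2A1. At an upstream start of BCL2L1 it first stood 208 bases before the start, and it occurred again nearer the start. The motif was in 9.45% of all these promoters. Promoter sequences were matched for 8 members, with 9 starts in all. MCL1 and BIK were not matched. Among the other members, BCL2L11 had 39 CG dinucleotides and BAX 38, BCL2L1 had 20 and 16 at its 2 starts, BAK1 had 7, and BBC3 had 5 at a start that lay 1468 bp from its canonical one. Over all coding promoters, those with 16 or more CG dinucleotides overlapped H3K27ac in 61.9% (HL-60), 71.4% (Molm13), 75.9% (OCI-AML3) and 74.3% (K562) of cases, against 23.6%, 32.3%, 35.5% and 29.8% of those with 0 to 5. The CG-rich BCL2 window was covered over all its 300 bp in the AML lines and over 0 bp in K562, whereas the CG-poor BCL2A1 window was covered over 0 bp in HL-60 and all 300 bp in the other 3 lines. The PMAIP1 window was covered in full in all 4 lines.

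For BIK, the sequences shown are the sgRNAs with which the study deleted an LTR13A element upstream of its transcription start site (TSS), because dCas9 was found beside that element in the LTR2B experiment. The deletion sgRNAs, given with the 3 bases that follow each site (the PAM) in capitals, each matched chromosome 22 (hg38) exactly once, the 3′ sgRNA1 on the minus strand and the others on the plus strand. Their outermost bases were at chr22:43103761-43104872.
BIK 5′ sgRNA1: ttcaaggagaagcctatcggGGG
BIK 5′ sgRNA2: ttcttcaacagctatacagcTGG
BIK 3′ sgRNA1: agaaagccacccagttgcagAGG
BIK 3′ sgRNA2: gtggctttctgcccacacttTGG

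The H3K27ac lists held 37606 peaks for OCI-AML3, 37484 for K562, 35206 for Molm13 and 20814 for HL-60, and covered 70.2, 76.9, 58.3 and 24.1 Mb. Read depth was not given in the sources used here, and fold enrichment is scaled within each library: its median over a list lay between 2.85 (K562) and 3.80 (Molm13). The fold enrichments of TSS peaks are therefore given with their percentile in their own list, where 100 is the strongest peak, and fold enrichments printed without one are not to be ranked between lines. The labels of the lines were checked at TSSs of marker genes. All 7 erythroid markers were marked in K562 and 0 of 7 in each AML line. Of 9 myeloid markers, all were marked in Molm13 and OCI-AML3, 7 in HL-60 and 5 in K562, which lacked CEBPA, CEBPE, MPO and ELANE. HOXA9, HOXA10 and MEIS1 were all marked in Molm13 and OCI-AML3 and none of them in HL-60, and K562 had MEIS1 alone. The T cell genes CD3D and CD3E and the liver genes ALB and APOA2 were marked in no line, whereas the epithelial gene KRT8 was marked in all 4, EPCAM in K562 and the B cell gene PAX5 in HL-60.

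Of the 10 members, 7 carried H3K27ac at a TSS in every line. The exceptions were 3 members with 3 different patterns, and that of BCL2A1 rested on a marginal K562 call. A gene was counted as marked where a peak lay within 500 bp of any of its annotated TSSs. In Molm13 and in OCI-AML3 all 10 members were marked, against 53.9% and 57.7% of all coding genes. In HL-60 8 members were marked, against 44.7% of coding genes, and the unmarked ones were BCL2A1 and BIK. In K562 8 were marked, against 55.9%, and the unmarked ones were BCL2 and BIK. The 7 members marked in all 4 lines, a state shared by 40.5% of coding genes, were BCL2L1, MCL1, BAX, BAK1, BCL2L11, BBC3 and PMAIP1. Among these, the HL-60 call of BBC3 was lost with the canonical TSS alone and with TSSs of protein-coding transcripts. The HL-60 call of BAK1 was lost where the peak had to contain the TSS or cover at least 50% of its window. The Molm13 call of BCL2L11 was lost at q below 0.001. BCL2 was marked in the 3 AML lines and not in K562, as were 2.22% of coding genes. BCL2A1 was marked in all lines but HL-60, as were 7.15%. Its K562 peak stood at percentile 6.64 and was lost at q below 0.05, at q below 0.001 and among equal numbers of peaks. It was also lost where at least 50% of the TSS window had to be covered. At q below 0.05, BCL2A1 was marked in Molm13 and OCI-AML3 alone, as BIK was. BIK was marked in Molm13 and OCI-AML3 alone, as were 2.78%, and its Molm13 call was lost at q below 0.001, among equal numbers of peaks, where the peak had to contain the TSS and where at least 50% of the TSS window had to be covered. Where members were marked, their strongest TSS peaks were set beside those of all marked coding genes. The members' median percentile was lower in HL-60, Molm13 and K562 and higher in OCI-AML3. It was 76.8, 73.5, 84.1 and 75.6 (HL-60, Molm13, OCI-AML3, K562), beside 78.9, 83.0, 80.3 and 81.7 over all marked coding genes.

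**Figure D1:**
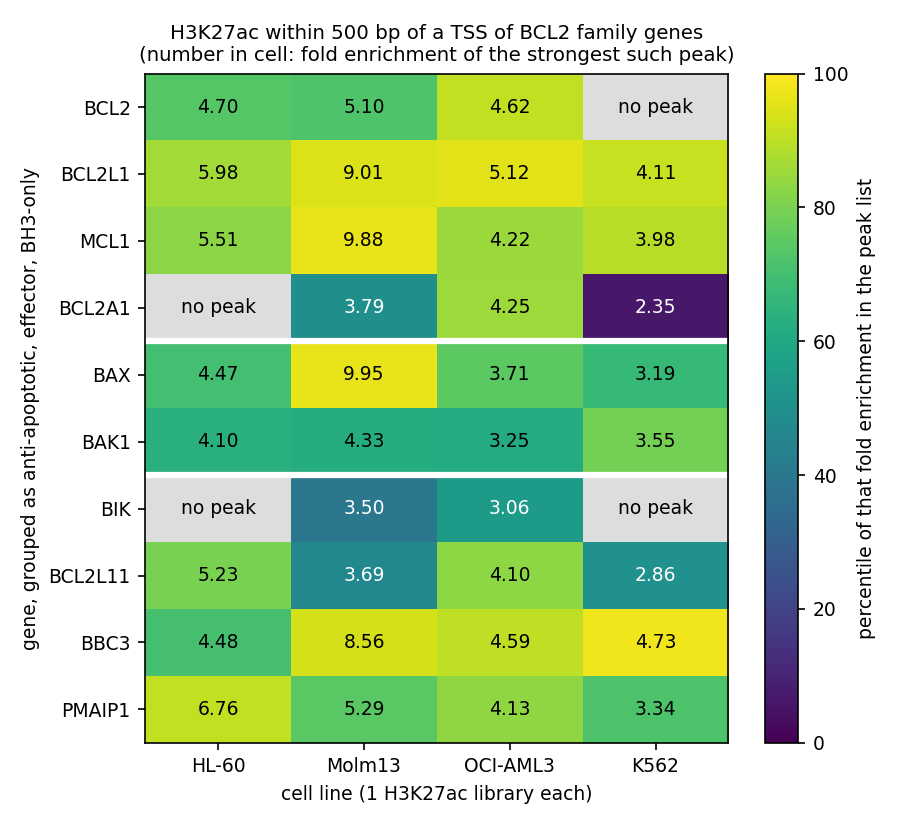
Fold enrichment of the strongest H3K27ac peak within 500 bp of a TSS (number in each cell) for 10 BCL2 family genes (rows) in 4 lines (columns, 1 library each), coloured by its percentile in that line's peak list. Grey cells, where no peak was called, are BCL2A1 and BIK in HL-60 and BCL2 and BIK in K562, and the K562 peak at BCL2A1 (2.35) is the darkest.

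BCL2, the founding anti-apoptotic gene (chromosome 18, 63123346 to 63320128, minus strand), had its TSS peak in the AML lines only. The fold enrichment was 4.70 in HL-60 (percentile 73.8), 4.62 in OCI-AML3 (90.8) and 5.10 in Molm13 (72.5). The peak was 10023 bp wide in OCI-AML3, where it reached 6621 bp into the gene, 7117 bp wide in Molm13 and 2628 bp wide in HL-60. K562 had no peak at any of the 7 annotated TSSs, and its nearest peak lay 47103 bp upstream of the canonical TSS. That peak sits at the TSS of KDSR, a gene of sphingolipid synthesis, which was marked in all 4 lines. Inside the 50 kb downstream of the BCL2 TSS, which lie within the gene, HL-60 and K562 had no further peak. Molm13 had 1, 14.6 kb downstream (fold enrichment 3.81), and OCI-AML3 had 4, from 11999 to 40332 bp downstream (2.44 to 2.84). None of these 5 intragenic regions was found in a second line.

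BCL2L1, which encodes BCL-XL (chromosome 20, 31664452 to 31723989, minus strand), was marked at its TSS in all 4 lines but differed in breadth. The TSS peak had a fold enrichment of 4.11 in K562 (percentile 91.5), 5.98 in HL-60 (86.3), 5.12 in OCI-AML3 (95.5) and 9.01 in Molm13 (94.8). Its width was 1056 bp (HL-60), 1600 bp (Molm13) and 1950 bp (OCI-AML3) in the AML lines and 13993 bp in K562. A second K562 peak of 47975 bp ran from 13980 to 61954 bp downstream, through the gene body and past its 3′ end, and was the widest of the 37424 K562 peaks used. At the far part of that stretch, between 45.5 and 48.6 kb downstream, each AML line had a peak of its own (fold enrichment 9.04 in Molm13, 4.57 in HL-60 and 3.64 in OCI-AML3), so the K562 peak joined places that were separate elsewhere. In total 59.2 kb of the 100 kb around the TSS lay under H3K27ac in K562, against 8.49 kb in Molm13, 7.82 kb in OCI-AML3 and 5.02 kb in HL-60, and 9 of the 20033 coding genes had more in K562. The TSS peak of the neighbouring gene TPX2, a spindle assembly factor 14.7 to 19.8 kb upstream, was also marked in every line and had its highest percentile in K562 (5.02, percentile 99.1). Regions in TPX2 were found in 1 line alone 25.1 kb (3.01) and 36.4 kb upstream (3.13) in K562 and 29.5 kb upstream (3.07) in Molm13.

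MCL1, whose short-lived product is required by many haematopoietic cells (chromosome 1, 150560895 to 150579738, minus strand), had a strong TSS peak in each line. The fold enrichment was 3.98 in K562 (percentile 89.2), 5.51 in HL-60 (82.5), 4.22 in OCI-AML3 (84.9) and 9.88 in Molm13 (96.5). H3K27ac covered 43.0 kb of its window in 11 peaks in K562, where 85 coding genes had more, 20.5 kb in 8 in OCI-AML3, 17.9 kb in 9 in Molm13 and 10.5 kb in 3 in HL-60. A region in an intron of ENSA, 30.1 to 36.8 kb upstream, was found in all 4 lines and held the strongest peak of the window in HL-60 (5.66) and OCI-AML3 (4.85). Molm13, OCI-AML3 and K562 shared 4 further regions that HL-60 lacked. They lay 24.6 to 35.2 kb downstream at a TSS of ADAMTSL4, 14.6 to 20.2 kb downstream, 10.0 to 12.8 kb downstream and 24.2 to 26.3 kb upstream. The promoter of ENSA, 48.0 kb upstream, was marked in all 4 lines, at 4.48 in K562 (percentile 96.2), 5.19 in HL-60 (79.4), 4.29 in OCI-AML3 (86.1) and 6.24 in Molm13 (82.6). K562 alone had 3 of the 11 regions, 39018 bp (2.50) and 23045 bp (2.46) downstream and 46.5 kb upstream (2.77).

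BCL2A1, an anti-apoptotic gene of myeloid and lymphoid cells that is known as an NF-κB target (chromosome 15, 79960892 to 79971196, minus strand), was marked at its TSS in all lines but HL-60. No peak lay within 500 bp of its 2 TSSs in HL-60, where the nearest began 2278 bp downstream (fold enrichment 3.95, 60.4). The TSS peak had a fold enrichment of 3.79 in Molm13 (49.7, 5293 bp wide), 4.25 in OCI-AML3 (85.5, 2225 bp) and 2.35 in K562 (6.64, 468 bp). The K562 call was marginal, with a −log10 q of 1.15, and was absent at q below 0.05, among equal numbers of peaks and where at least 50% of the TSS window had to be covered. A region 5.64 to 11.9 kb upstream, between coding genes, was present in all 4 lines. There the fold enrichment was 6.60 in Molm13, 4.48 in OCI-AML3, 4.30 in HL-60 and 3.20 in K562. HL-60 and K562 thus had the mark near the gene, on the upstream side and 2.19 to 3.58 kb downstream, with little or none at the TSS. The covered length was 18.6 kb in Molm13 and 19.3 kb in OCI-AML3, beside 5.65 kb in HL-60 and 7.84 kb in K562. A region 38.8 to 40.5 kb upstream was found in Molm13 (4.27) and OCI-AML3 (2.99) alone, and a region 15.5 to 19.1 kb downstream in Molm13 (4.97), OCI-AML3 (3.05) and K562 (2.49). The promoter of ST20-MTHFS, 46.3 to 49.4 kb downstream, was marked in all 4 lines and held the strongest peak of the window in Molm13 (8.84), OCI-AML3 (5.14) and K562 (4.20). OCI-AML3 alone had 3 regions, 8397 bp (2.81) and 10321 bp (2.61) downstream and 18.2 kb upstream (2.56), Molm13 alone 1, 20.4 kb downstream (3.36), and K562 alone 1, 22.3 kb downstream (2.64).

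**Figure D2:**
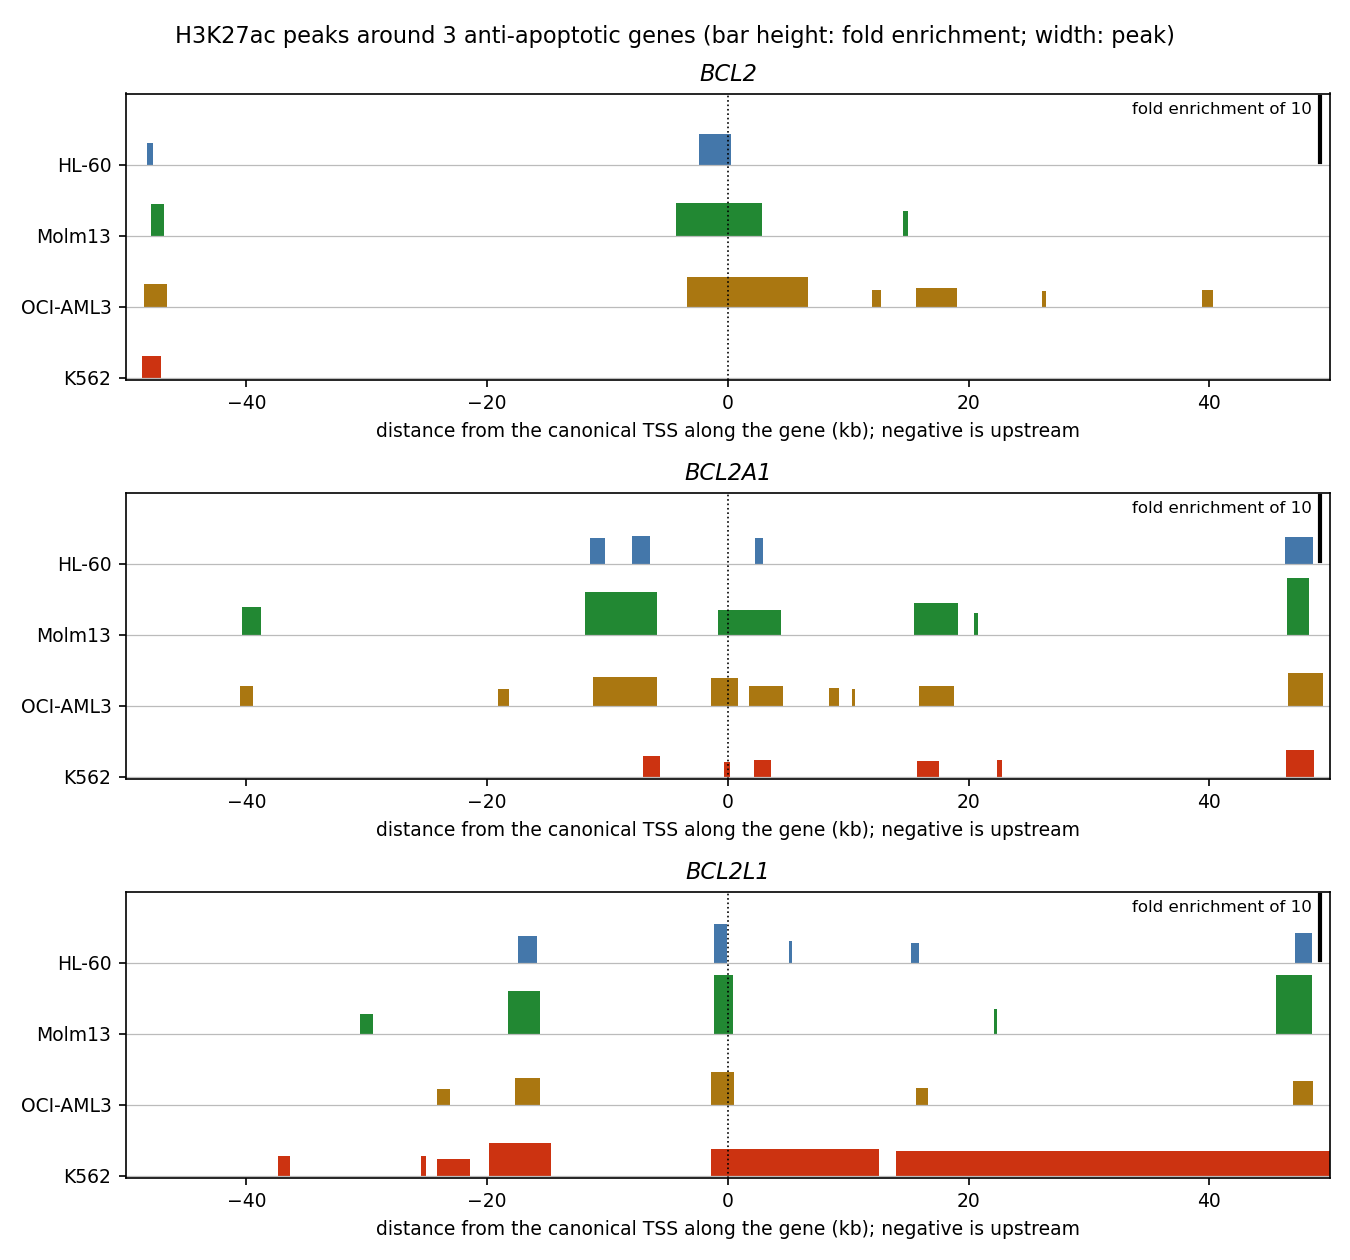
H3K27ac peaks within 50 kb of the canonical TSS (dotted line) of BCL2, BCL2A1 and BCL2L1 in 4 lines, by distance along the gene in kb, with bar height giving fold enrichment (the scale bar is 10). K562 has no peak at the BCL2 TSS and 59.2 kb under peaks at BCL2L1, and HL-60 has no peak at the BCL2A1 TSS.

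The effector genes were marked in all 4 lines. BAX (chromosome 19, 48954815 to 48961798, plus strand) had a TSS fold enrichment of 3.19 in K562 (percentile 66.8), 4.47 in HL-60 (70.2), 3.71 in OCI-AML3 (74.7) and 9.95 in Molm13 (96.6). Only 754 of the 9676 bp covered in its HL-60 window belonged to that peak, and 8922 bp to peaks at other genes' TSSs. The largest neighbour region, 4.62 to 13.8 kb downstream, spanned the end of BAX and the TSS of FTL, which encodes the ferritin light chain, and its strongest peak reached 5.10 in K562 (99.3). Another, 36.9 to 41.4 kb downstream at the TSSs of GYS1 and RUVBL2, was also found in all 4 lines. A peak at a TSS of DHDH was found in K562 alone (2.26, percentile 2.95) and one at another TSS of GYS1 in Molm13 alone (3.48). Distal regions in 1 line alone lay 34.8 kb upstream (2.53) and 42.9 kb downstream (2.81) in K562 and 19.7 kb downstream (4.12) in Molm13.

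BAK1 (chromosome 6, 33572547 to 33580293, minus strand) had the smallest window in HL-60, where its TSS peak was the only one. The TSS fold enrichment was 3.55 in K562 (percentile 79.0), 4.10 in HL-60 (63.5), 3.25 in OCI-AML3 (61.7) and 4.33 in Molm13 (62.0). The HL-60 peak began 25 bp downstream of the canonical TSS and did not reach it, so that HL-60 lost this member when a peak had to contain the TSS. A region 8.16 to 9.89 kb downstream, beyond the 3′ end, was found in Molm13 (5.32), OCI-AML3 (3.91) and K562 (2.40), and a region in the gene 2.50 to 3.76 kb downstream in Molm13 (4.84) and OCI-AML3 (2.87) alone. The TSS of ITPR3, 39.9 to 41.8 kb upstream, was marked in OCI-AML3 (2.23) and K562 (2.65). The covered length was 5.60 kb in K562, 5.43 kb in OCI-AML3, 4.09 kb in Molm13 and 1.17 kb in HL-60.

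BIK, a BH3-only gene whose product acts from the endoplasmic reticulum (chromosome 22, 43110750 to 43129712, plus strand), was the member with a marked TSS in the fewest lines. Its single TSS was marked in Molm13 by a peak of 393 bp that began 220 bp downstream (fold enrichment 3.50, 39.8) and in OCI-AML3 by a peak of 1404 bp across it (3.06, 54.3). HL-60 had no peak closer than 16749 bp downstream and K562 none closer than 5697 bp upstream. H3K27ac covered 33.4 kb of the window in 14 peaks in Molm13 and 20.5 kb in 10 peaks in OCI-AML3, against 5.08 kb in 4 peaks in HL-60 and 6.98 kb in 5 peaks in K562. In Molm13, 112 coding genes had more. Of the 15 regions, 4 were found in Molm13 and OCI-AML3 alone: the TSS region itself, regions 4.37 to 6.19 and 7.43 to 8.80 kb downstream in introns, and a region 15.3 to 19.1 kb upstream. The strongest of these was the first intronic one in Molm13 (6.88, percentile 86.8), which in OCI-AML3 had a fold enrichment of 2.92 (48.3). A broad region 12.4 to 22.5 kb downstream, over the 3′ part of BIK and the end of MCAT, was found in the 3 AML lines and held the strongest peak of the HL-60 window (5.22, 79.6). The TSSs of MCAT, a mitochondrial fatty acid synthesis gene, and of TSPO, a mitochondrial outer membrane protein gene, 30.6 to 33.3 and 40.4 to 44.2 kb downstream, were marked in all 4 lines. The TSS region of TTLL1 was marked in all but HL-60. A region 36.0 to 38.3 kb downstream was found in the 3 AML lines and was among the strongest in Molm13 (6.14). Molm13 alone had 4 regions, 12038 bp upstream (3.87) and 10.0 kb (3.94), 26.0 kb (3.21) and 28.5 kb (3.11) downstream, and K562 alone had 1, 8.92 to 10.4 kb upstream (2.77).

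The region 4.22 to 7.45 kb upstream of BIK, between coding genes, was not marked in HL-60. It was marked in Molm13 (5.62, percentile 77.7), OCI-AML3 (4.40, 87.7) and K562 (3.46, 76.2), where it held the strongest peak of the window. The interval of 1112 bp between the outermost deletion sgRNAs lies in this region. It was covered by H3K27ac over 100% of its length in Molm13, OCI-AML3 and K562 and over 0% in HL-60. K562 was thus marked at this distal region while its BIK TSS was not.

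BIK was also the only member with a dCas9 peak within 50 kb of the canonical TSS, where 2.37% of all coding genes had one. The first peak (331 bp, chromosome 22, 43103425 to 43103755) had a fold enrichment of 12.5, at percentile 81.5 of the 395 dCas9 peaks listed, and its summit lay 7141 bp upstream. The second (252 bp, 43104919 to 43105170) had a fold enrichment of 8.89, at percentile 61.4, with the summit 5618 bp upstream. Neither held a site of an LTR2B sgRNA with at most 3 mismatches and an NGG motif. The closest place in the first had 8 mismatches and in the second 9.

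Both dCas9 peaks overlapped the H3K27ac region described above, over 331 and 252 bp in both Molm13 and OCI-AML3, 182 and 135 bp in K562 and 0 bp in HL-60. They did not overlap the deleted interval but stood on either side of it. The first ended 5 bases before the site of the outermost 5′ sgRNA and the second began 46 bases after the outermost 3′ sgRNA, with 1163 bases between the peaks. Both also lay wholly within the 1793 bp of hg38 that the study's BIK genotyping primers delimit, 14 bases inside its first end and 33 bases inside its last. The part of these positions in the dCas9 signal was not tested. For the other 9 members the nearest dCas9 peak was 318 kb (BBC3), 702 kb (MCL1), 907 kb (BCL2L1) or between 1730 and 11600 kb away.

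**Figure D3:**
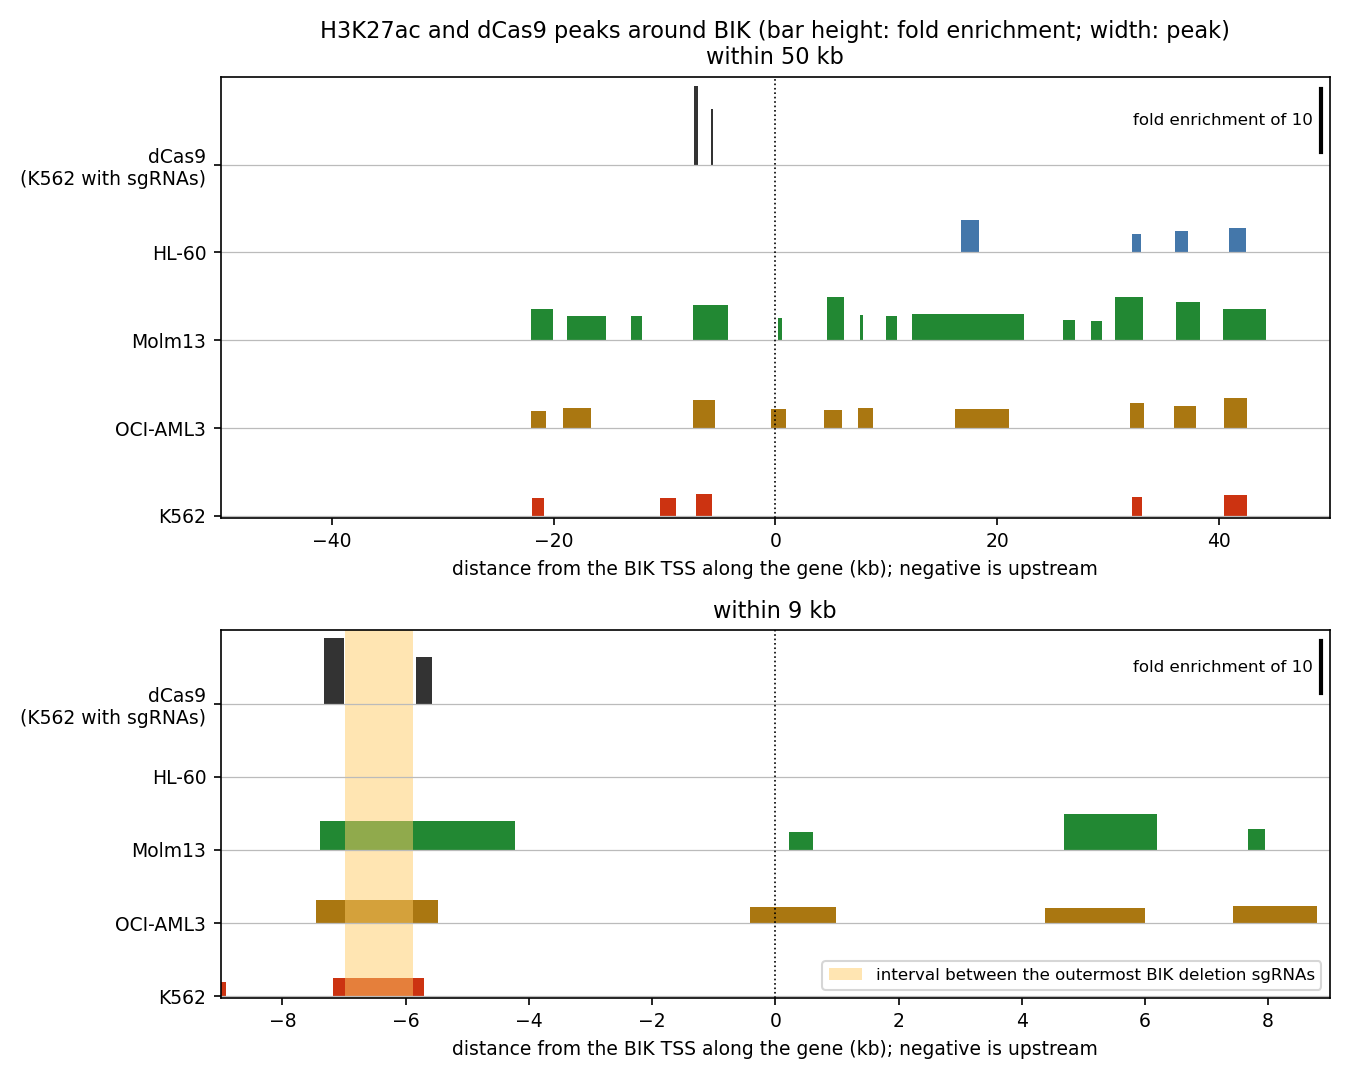
H3K27ac peaks in 4 lines and dCas9 peaks in K562 with LTR2B sgRNAs, by distance in kb from the BIK TSS (dotted line), within 50 kb (top) and 9 kb (bottom), with bar height giving fold enrichment (the scale bar is 10). The shaded interval between the deletion sgRNAs is under H3K27ac in Molm13, OCI-AML3 and K562, and the 2 dCas9 peaks flank it.

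BCL2L11, which encodes BIM (chromosome 2, 111119378 to 111168444, plus strand), had little H3K27ac beyond its promoter. The TSS fold enrichment was 2.86 in K562 (percentile 50.6), 5.23 in HL-60 (79.8), 4.10 in OCI-AML3 (82.9) and 3.69 in Molm13 (46.7). The covered length was 3.20 kb (HL-60), 5.74 kb (Molm13), 4.49 kb (OCI-AML3) and 3.57 kb (K562), of which 3201, 4733, 3319 and 2929 bp belonged to the TSS peak. Each of its 3 other regions, all in the gene, was found in 1 line alone: OCI-AML3 9.05 kb (2.81), K562 27.6 kb (2.83) and Molm13 43.8 kb (3.19) downstream. Of its 5 TSSs, the most upstream was marked in Molm13 alone.

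BBC3, which encodes PUMA, a p53 target (chromosome 19, 47220822 to 47232766, minus strand), was marked at its canonical TSS in all lines but HL-60. The fold enrichment was 4.73 in K562 (percentile 98.0), 8.56 in Molm13 (93.6) and 4.59 in OCI-AML3 (90.3). The HL-60 peak (4.48, 70.4) lay 3631 to 4635 bp downstream, at a TSS of a retained-intron transcript, and BBC3 was unmarked in HL-60 when the canonical TSS alone was used. The TSS 1567 bp further upstream was marked in Molm13 alone. The window held 15 peaks in K562, 7 in Molm13, 5 in OCI-AML3 and 3 in HL-60, and 9 of its 16 regions were found in K562 alone, 5 of them in introns of SAE1. These 9 had fold enrichments from 2.35 (percentile 6.77) to 3.08 (62.3). Molm13 alone had 1 region, 21.1 kb upstream (2.74). The TSSs of CCDC9 and INAFM1, 24.4 to 27.7 and 40.8 to 43.9 kb upstream, were marked in all 4 lines.

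PMAIP1, which encodes NOXA, another p53 target (chromosome 18, 59899996 to 59904305, plus strand), was the member with the most distal marks in common. Its TSS fold enrichment was 3.34 in K562 (percentile 72.2), 6.76 in HL-60 (90.9), 4.13 in OCI-AML3 (83.4) and 5.29 in Molm13 (74.5), and all 3 of its TSSs were marked in every line. No peak in its window lay at the TSS of another coding gene. The window held 10 peaks in Molm13 (16.9 kb), 9 in OCI-AML3 (18.3 kb), 8 in HL-60 (10.7 kb) and 7 in K562 (10.6 kb). Of its 12 distal regions 4 were found in all 4 lines, 16.1 to 18.9 and 13.4 to 14.5 kb upstream and 10.2 to 13.2 and 17.2 to 19.7 kb downstream. The last held the strongest K562 peak of the window (3.64, 81.5), stronger there than at the TSS. The region 20.3 to 25.2 kb upstream was found in the 3 AML lines (4.35, 4.96 and 3.66) and not in K562. HL-60 alone had a region 37.2 kb upstream (4.47), the only one of the 96 around members that was found in HL-60 alone. Around PMAIP1, Molm13 alone had a region 47.1 kb upstream (4.05), OCI-AML3 alone 21.2 kb downstream (2.52) and K562 alone 27.3 kb downstream (2.87).

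Over the windows as a whole, members had more H3K27ac than the median coding gene. With the lines in the order HL-60, Molm13, OCI-AML3, K562, the members' median length was 5.05, 16.0, 15.7 and 9.22 kb, beside 1.38, 3.11, 3.71 and 4.56 kb over all coding genes. Of the 10 members, 9, 10, 10 and 8 lay above the latter. The members' K562 median of 9217 bp was 4595.5 bp at q below 0.001 and 6011 bp with equal list sizes. In the same order, the summed fold enrichment had medians of 15.7, 35.4, 18.4 and 19.3 for members, beside 6.35, 11.9, 8.15 and 8.29. Peaks at the members' own TSSs made up 27.1%, 25.0%, 26.1% and 22.7% of their covered length. Peaks at other coding genes' TSSs made up 34.9%, 23.5%, 24.0% and 26.1%, and distal peaks 38.1%, 51.5%, 49.9% and 51.2%. By covered length the first member was PMAIP1 in HL-60 (10711 bp, MCL1 10471 bp), BIK in Molm13, MCL1 in OCI-AML3 (20535 bp, BIK 20532 bp) and BCL2L1 in K562. By summed fold enrichment it was PMAIP1 in HL-60 (33.1), BIK in Molm13 (65.3) and OCI-AML3 (34.7), and BBC3 in K562.

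Peaks of the 4 lines that overlapped were merged into 96 regions around the members. Of these, 25 (26.0%) were found in all 4 lines, beside 11.7% of 74697 regions in the whole genome. Another 43 were found in 1 line alone, beside 63.9% of the regions in the genome. The members' windows are centred on TSSs, and the genome's regions were not split into promoters and distal regions. These shares therefore do not compare like with like. The shared regions were mostly promoters: 8 of 10 own-TSS regions, 10 of 15 at other coding genes' TSSs and 7 of 71 distal ones were found in all 4 lines. The BCL2A1 region counts among the 8 through an HL-60 peak that lies beside the TSS. K562 alone had 21 regions, Molm13 alone 12, OCI-AML3 alone 9 and HL-60, the shortest list, 1.

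Of the 11 further family genes looked at, the same 6 were marked in each of the 4 lines: the anti-apoptotic BCL2L2, the BH3-only BAD, BID and BMF, and BCL2L12 and BCL2L13. BCL2L10, HRK, BOK, BCL2L14 and BCL2L15 were marked in none. The 54.5% marked in each line lay near the share of all coding genes (44.7% to 57.7% by line). Another 20 genes looked at act with the family, such as the apoptosome gene APAF1, the caspases, cytochrome c (CYCS) and the inhibitors of apoptosis. Of these, 18 were marked in HL-60 and 19 in each other line, a larger share than 44.7% to 57.7% of all coding genes. The exceptions were BIRC3, an inhibitor of apoptosis, in all 4 lines, and VDAC3, a channel of the outer mitochondrial membrane, in HL-60.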

How the data were processed

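ChIP-seq peak lists of 5 samples were used. Per the labels and the study's methods, the authors trimmed reads (Trim Galore 0.4.5), aligned them to hg38 with Bowtie2 and called peaks with MACS2 (2.1.1), in broad mode for H3K27ac and narrow mode for dCas9. Each deposited list gives fold enrichment over local background (a ratio), −log10 p-values and −log10 q-values, and a score derived from q. The dCas9 list also gives the summit. Depth is unknown from these lists, and the control library used in calling was not given in the sources used here. The largest q-value in an H3K27ac list was 0.0947 to 0.0995, and in the dCas9 list 0.0422. The other 14 samples, the dCas9 sample with the empty vector included, were not analysed here.

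Groups came from the sample titles. Peaks were set against GENCODE release 44 (Python 3.11.15, pandas 2.3.3, NumPy 2.4.6). A gene was marked where a peak lay within 500 bp of any annotated TSS. Windows reached 50 kb on each side of the Ensembl canonical TSS, and bases outside were not counted. Other genes' TSSs, gene bodies and places between genes were taken from protein-coding genes alone. A distal peak can therefore lie at a non-coding gene. Fold enrichment was ranked between libraries only as a percentile in its list. Peaks of different lines sharing at least 1 base were merged into regions, and a wide peak can join several narrow ones. With 1 library per line no test was run. sgRNA sites were searched on both strands. Only reagent sequences were taken from the supplements. The counting code was tested on simulated data.

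The members and gene lists were chosen with earlier results of these data known. All members were described, 11 further family genes were named with their state, and genes of the pathway list were named where unmarked in a line or as examples. Of the regions, those among the 3 strongest in a line or found in 1 line alone were named, and neighbours where their TSS lay in a peak. Alternatives covered TSS distance and choice, q-value, equal list sizes, window and guide mismatches. Some items are not reported here.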

Additional observations from a re-analysis of the deposited data

How the results depend on the processing

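The TSS counts of members, their median covered lengths and the dCas9 and guide-site counts, 11 results, were recomputed under 65 alternatives in all, and 63 stayed within 1.5 times the value reported. This bound is loose for the TSS counts: a fall from 10 members to 8 in Molm13 at q below 0.001 lay within it. Summed fold enrichments, percentiles, merged regions, the further gene lists and the values over all coding genes were not recomputed. The 2 alternatives outside 1.5 times were both in K562, for the median H3K27ac length within 50 kb of members. It fell from 9217 bp to 4595.5 bp at q below 0.001, and to 6011 bp with the 20772 peaks of lowest q-value in each list. The members marked in all 4 lines numbered 6 or 7 throughout. BIK was the only member with dCas9 nearby in every alternative, and neither of its peaks gained a guide site at up to 5 mismatches or after extension by 200 bp. Single calls that changed were BCL2A1 in K562, BBC3 and BAK1 in HL-60, and BIK and BCL2L11 in Molm13: BIK was unmarked there at q below 0.001, among equal numbers of peaks, where the peak had to contain the TSS and where at least 50% of the TSS window had to be covered, and BCL2L11 at q below 0.001. BCL2 in K562, BCL2A1 in HL-60, and BIK in HL-60 and K562 were unmarked in every alternative. No paired analysis was possible because each line had 1 library with a peak list. With 1 library per line, no value here has a replicate error.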
